A study of Mus musculus with 8 samples.

Results

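Enteric neurons and enteric glia form the nervous system of the gut wall, and 8 genes that mark them were followed across the middle colon and the rectum of mice. The 7 neuronal genes were Elavl4, Uchl1, Prph, Vip, Tac1, Nos1 and Ret, and the glial gene was S100b. They were chosen by name from 16309 genes named on the array, with earlier results of these data known. Each of the 8 had at least 1 probe, and 10 probes measured them in all, with a pair of probes each for Elavl4 and Uchl1. A probe was tested if its signal lay well above background on at least 4 of the 8 arrays. This held for 9 of the 10 probes and for 7 of the 8 genes, the exception being Ret.

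The cell bodies of enteric neurons lie in the myenteric plexus, between the muscle layers, and in the submucosal plexus, and their fibres reach into the mucosa. Excitatory motor neurons release acetylcholine and tachykinins, and inhibitory motor neurons release nitric oxide and vasoactive intestinal peptide, so that muscle ahead of and behind the gut content contracts and relaxes in turn. Submucosal neurons that hold vasoactive intestinal peptide drive secretion and widen blood vessels. Glia surround the neurons and their fibres in the plexuses and the mucosa, and the receptor RET is needed for the precursors of neurons and glia to colonise the gut.

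Each array held RNA pooled from 5 mice. The groups were IL18ko mice, which lack interleukin 18, under isolation stress (IL18ko stress), IL18ko mice as controls (IL18ko control), wild-type mice under the same stress (WT stress) and wild-type controls (WT control). Each gave 1 array of rectum, taken as 7 mm from the anus, and 1 of colon, taken 2.5 to 3.5 cm from the ileocecum. Per the labels' protocols, sets of 5 brothers shared a cage until an age of 10 to 12 weeks, and 3 of the 5 were then housed singly. The design text gives 8 days of isolation and the treatment protocol 16 days, and the design text places the controls before isolation, so stressed mice were also older. The tissue is called mucosa in the labels. No group had a replicate. The test between tissues rests on the spread of 4 matched pairs. Those of genotype and stress rest on the residual spread of a fit to the 8 arrays, with 4 residual degrees of freedom. That fit takes the colon and rectum arrays of a mouse group as independent. Whether a colon pool and its matched rectum pool shared mice is not stated in the labels. All colon arrays lay on 1 slide and all rectum arrays on another, so slide and tissue cannot be told apart, nor can the position on the slide and the mouse group.

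The share of spots well above background ran from 62.2% to 66.4% over the 8 arrays. The signal at the 75th percentile ran from 578 on the WT stress rectum array to 818 on the WT control colon array. The WT stress rectum array stood apart in a further measure. For 2015 genes with a bright and a dim probe more than 2 log2 units apart, the gap was set against the gene's median gap over the 8 arrays. It was wider by a median of 0.28 on the WT stress rectum array, against 0.18 on the IL18ko stress colon array and -0.12 to 0.02 on the other 6. Il18 itself was not well above background on any IL18ko array, at -7.85 to -7.48, and lay at 2.76 to 5.88 on the WT arrays. Every level is a log2 intensity from which the array's 75th percentile was subtracted, and levels of different probes are not compared with each other.

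The label of mucosa was set against marker lists. Epithelial genes were well above background on all 8 arrays (10 of 10 tested). So were the 13 smooth muscle genes tested, and mesothelial genes were above background on all 4 colon arrays (5 of 5). Of the defining glial markers, Erbb3 was well above background on all 8 arrays and Gfap on none, and Sox10 and Cdh19 were not analysed here. In bulk RNA of this kind, fewer cells of a type and less RNA per cell cannot be told apart.

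The stretches before the transcription start of 7 of the 8 genes were found in RefSeq (build GRCm38.p6). The 250 bases before the start are shown for 4 genes, because they differ in role and in how far apart the tissues lay: the peptide genes Vip and Tac1, the filament gene Prph and the glial gene S100b. Each reads 5′ to 3′ on the plus strand, and capitals mark 4 motifs: the core of the cAMP response element (TGACGTC), the shorter part of that element (TGACG, on either strand), the TATA box (TATAAA) and the E-box (CACGTG). These motifs were chosen after the sequences were seen.
Vip, chr10:5638968-5639217: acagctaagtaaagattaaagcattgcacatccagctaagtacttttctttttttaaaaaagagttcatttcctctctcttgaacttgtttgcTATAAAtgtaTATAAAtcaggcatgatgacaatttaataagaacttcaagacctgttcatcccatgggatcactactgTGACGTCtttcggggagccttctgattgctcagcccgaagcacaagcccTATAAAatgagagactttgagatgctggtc
Tac1, chr6:7554811-7555060: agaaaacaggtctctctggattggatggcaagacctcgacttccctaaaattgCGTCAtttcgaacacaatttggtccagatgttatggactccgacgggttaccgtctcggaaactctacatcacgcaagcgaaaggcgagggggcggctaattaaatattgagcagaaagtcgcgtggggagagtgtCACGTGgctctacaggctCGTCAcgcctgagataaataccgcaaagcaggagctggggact
Prph, chr15:99054924-99055173: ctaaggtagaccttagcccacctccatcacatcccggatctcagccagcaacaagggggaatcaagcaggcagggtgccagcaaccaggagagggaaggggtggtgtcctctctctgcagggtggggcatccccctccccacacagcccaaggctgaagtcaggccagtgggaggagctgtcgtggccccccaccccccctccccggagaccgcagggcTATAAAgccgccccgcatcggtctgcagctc
S100b, chr10:76253586-76253835: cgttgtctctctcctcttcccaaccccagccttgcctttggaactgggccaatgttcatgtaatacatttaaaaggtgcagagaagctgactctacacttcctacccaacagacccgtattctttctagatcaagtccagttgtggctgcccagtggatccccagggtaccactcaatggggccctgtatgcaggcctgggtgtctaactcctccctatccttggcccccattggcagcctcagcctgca

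Both strands were searched, in 4 windows for Elavl4, which has 4 starts, and in 1 for each of the other 6 genes. Shares of windows are over 27025 mouse genes with 1 window of the same length each. Vip alone of the 7 genes held TGACGTC, which begins 79 bases before its start and also contains TGACG, and 2.88% of windows held it. TATAAA begins 31 bases before the start of Prph and 30 before that of Vip, which has 2 further copies at 157 and 147 bases, and 13.0% of windows held it. Tac1 held CACGTG 61 bases before its start (6.05% of windows) and the reverse complement of TGACG at 197 and 43 bases. TGACG on either strand was in 4 of the 7 genes, Elavl4 (in 3 of its 4 windows), Vip, Tac1 and Nos1, and in 17.9% of windows. A pair of parts of the repressor element RE1 were also searched, TTCAGCACC, which 0.285% of windows held, and the shorter GGACAGC, which 5.29% held, and neither was in any window of the 7 genes. S100b held none of these motifs in this window. A match describes letters and shows no binding.

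The first comparison set the rectum against the middle colon. All 7 genes tested were lower in rectum at an adjusted p under 0.05 (limma, Benjamini-Hochberg over all probes tested), where 14.0% of all 26273 probes tested were called lower and 27.0% were called in either direction. Each was lower in 4 of 4 matched pairs. In 6 of the 7 the 4 rectum arrays all lay below the 4 colon arrays, which held for 14.9% of all probes tested. These counts include Nos1, which passed the filter through its 4 colon arrays and was above background on 1 rectum array. With the filter on all 8 arrays, all 6 genes tested were called lower, where 2974 of 23565 probes were. The genes were chosen with earlier results of these data known, so the shares are given as a description. The median difference over the 6 neuronal genes tested was -1.70, against 0.03 over all genes tested. It was -1.79 over the 5 of them above background on all 8 arrays, which leaves out Nos1, near background in rectum.

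Elavl4 lies on chromosome 4 and encodes HuD, an RNA-binding protein of neurons. Its level in rectum was -1.59 in IL18ko stress, -1.66 in IL18ko control, -1.82 in WT stress and -1.89 in WT control. In colon it was 0.48, 0.05, 0.12 and 0.19 in the same order of groups. The 4 arrays of each tissue lay close together, and the tissues were far apart. The difference, rectum minus colon, was -1.95 ± 0.12 (log2, SE, n = 4 pairs, limma adjusted p = 9.7e-05), or 3.86-fold lower. The second probe of Elavl4 gave -1.87 ± 0.24 (limma adjusted p = 0.00203).

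Uchl1, on chromosome 5, encodes PGP9.5, a ubiquitin hydrolase abundant in neurons. On the rectum arrays it stood at 1.94 in IL18ko stress, 1.98 in IL18ko control, 1.42 in WT stress and 1.63 in WT control. The colon arrays stood at 3.63, 3.49, 3.41 and 3.63 in the same order. The tissues did not overlap, and within rectum both WT arrays lay below both IL18ko arrays. The difference was -1.79 ± 0.12 (limma adjusted p = 1.5e-04), or 3.47-fold. The dimmer probe of Uchl1 gave a like mean, -1.76 ± 0.35 (limma adjusted p = 0.0123), but its 4 pairs ran from -3.12 to -0.74, the widest being the WT stress pair.

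Prph, on chromosome 15, encodes peripherin, an intermediate filament of peripheral neurons. Its level in rectum was -1.46 in IL18ko stress, -1.83 in IL18ko control, -3.52 in WT stress and -1.85 in WT control. On the colon arrays it was -0.62, -0.30, -0.01 and -0.25. The WT stress rectum array lay far below the other 3 rectum arrays, and the tissues did not overlap. The difference was -1.87 ± 0.40 (limma adjusted p = 0.0163), with pairs from -3.52 to -0.84. Without the WT stress pair it was -1.32 (limma adjusted p = 5.3e-04). Without the WT control pair or the IL18ko control pair the limma adjusted p was 0.0621 and 0.0514.

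**Figure D1:**
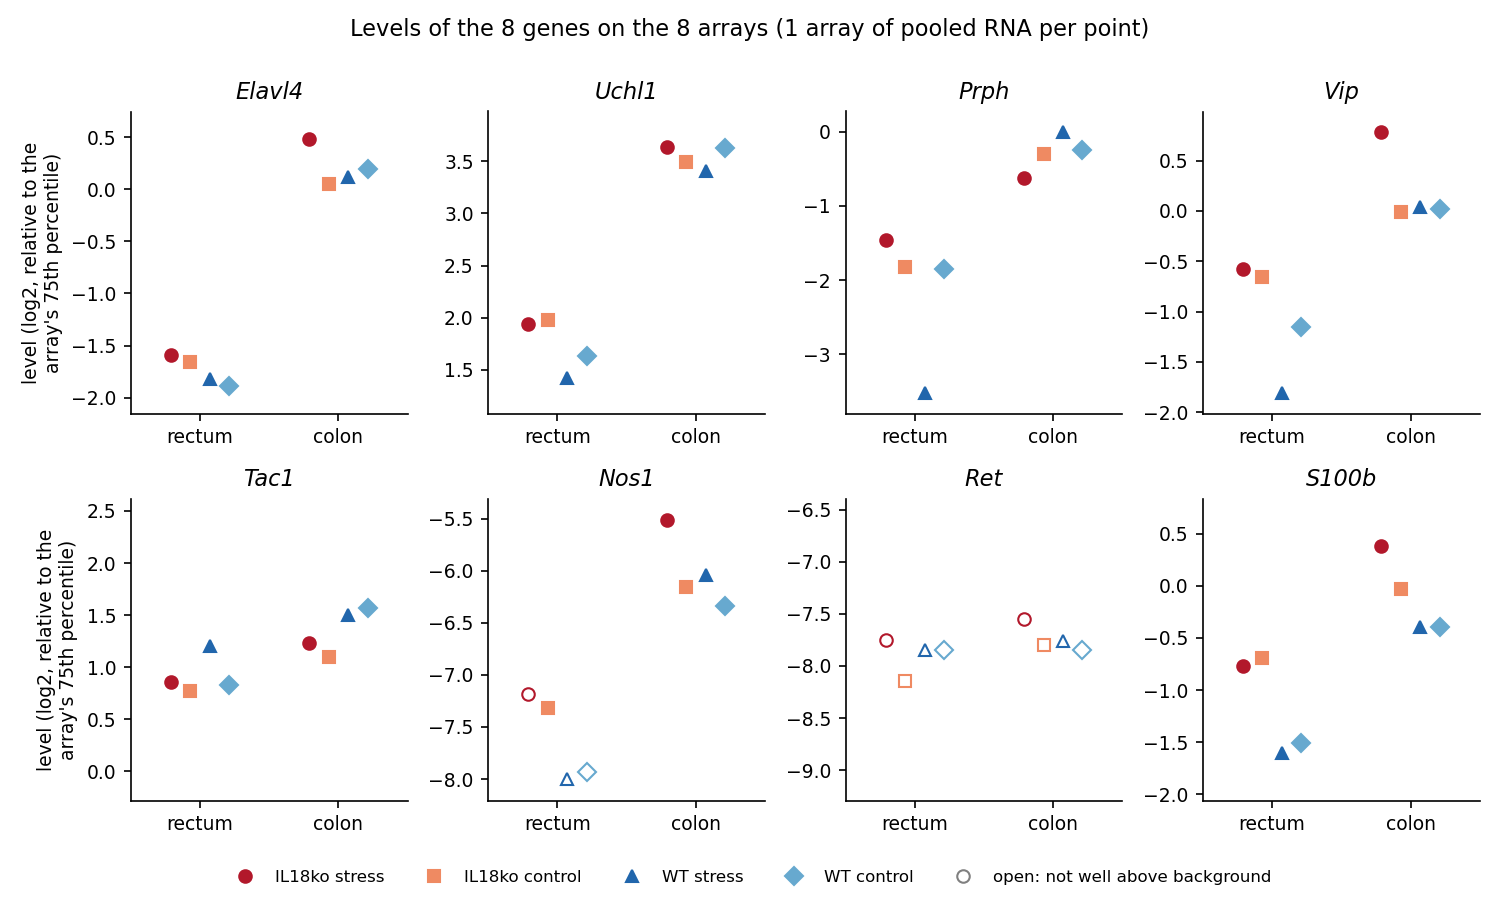
Level of each of the 8 genes on each array (y axis, log2 relative to the 75th percentile of the array) in rectum and in colon (x axis). Each point is 1 array of RNA pooled from 5 mice, colours and shapes give the mouse group, and open symbols were not well above background. Elavl4, Uchl1, Prph, Vip, Nos1 and S100b lie lower on all 4 rectum arrays than on all 4 colon arrays, Tac1 overlaps, and Ret is open throughout.

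Among the transmitter genes, Vip, on chromosome 10, encodes vasoactive intestinal peptide, which relaxes smooth muscle and drives secretion. Rectum levels were -0.58 in IL18ko stress, -0.66 in IL18ko control, -1.81 in WT stress and -1.16 in WT control. Colon levels were 0.78, -0.01, 0.04 and 0.02. The tissues did not overlap. The IL18ko stress array was the highest in each tissue. The difference was -1.26 ± 0.19 (limma adjusted p = 0.00435), or 2.40-fold, with pairs from -1.85 to -0.66.

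Tac1, on chromosome 6, encodes the precursor of the tachykinins substance P and neurokinin A, which excite muscle; in mouse it is also made by some enteroendocrine cells. The rectum arrays gave 0.85 in IL18ko stress, 0.77 in IL18ko control, 1.20 in WT stress and 0.83 in WT control. The colon arrays gave 1.23, 1.10, 1.51 and 1.57. The tissues overlapped, since the WT stress rectum array lay above the IL18ko control colon array. The difference was -0.44 ± 0.11 (limma adjusted p = 0.0330), or 1.35-fold, with pairs from -0.74 to -0.30. This call was lost without the variance trend (limma adjusted p = 0.0502), with the other background correction (-0.36, limma adjusted p = 0.0509), and without the WT control, IL18ko control or IL18ko stress pair (limma adjusted p from 0.0760 to 0.183).

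Nos1, on chromosome 5, encodes the neuronal nitric oxide synthase of inhibitory motor neurons. It was well above background on all 4 colon arrays and on 1 of the 4 rectum arrays, that of IL18ko control. Its level in rectum was -7.19 in IL18ko stress, -7.32 in IL18ko control, -8.00 in WT stress and -7.93 in WT control. In colon it was -5.51, -6.16, -6.05 and -6.34. All rectum arrays lay below all colon arrays, at signals near background. The difference was -1.60 ± 0.28 (limma adjusted p = 0.00720), and its size rests in part on 3 rectum arrays where it was not well above background. With the model-based background correction, which adds an offset of 50 to every signal, the difference was -0.13 (limma adjusted p = 0.301).

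Ret, on chromosome 6, encodes the receptor tyrosine kinase for the glial cell line-derived neurotrophic factor family. It was not well above background on any array. Its values lay from -8.14 to -7.75 in rectum and from -7.85 to -7.55 in colon, so no difference is given.

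S100b, on chromosome 10, encodes a calcium-binding protein of glia, and adipocytes also make it. Its level in rectum was -0.77 in IL18ko stress, -0.70 in IL18ko control, -1.61 in WT stress and -1.51 in WT control. In colon it was 0.38, -0.03, -0.40 and -0.40. The tissues did not overlap, and in each tissue both IL18ko arrays lay above both WT arrays. The difference between tissues was -1.03 ± 0.13 (limma adjusted p = 0.00188), or 2.05-fold, with pairs from -1.21 to -0.67.

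**Figure D2:**
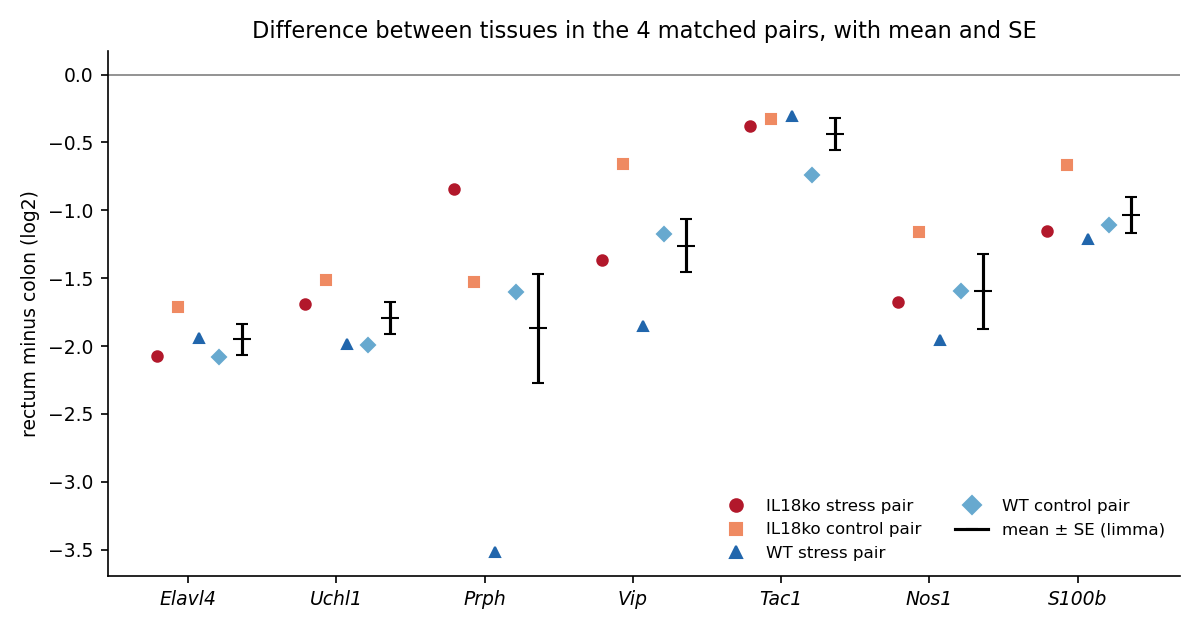
Difference of each gene tested between rectum and colon (y axis, log2) in the 4 matched pairs, with the mean and the SE from limma (black). All points lie below 0, Elavl4 and Uchl1 with the narrowest spread relative to their mean, Prph with the widest, and Tac1 nearest to 0.

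Ordered by size, the differences of the 6 genes above background on all 8 arrays were those of Elavl4, Prph, Uchl1, Vip, S100b and Tac1. Elavl4 and Prph, and likewise Prph and Uchl1, lay closer together than the smaller of their SEs. The 4 pairs of Tac1, from -0.74 to -0.30, did not overlap those of Elavl4, from -2.08 to -1.71, or Uchl1, from -1.99 to -1.51, and did overlap those of Vip and S100b. Whether the genes differed from each other was not tested.

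Other neuronal genes were read from lists. Over all 12722 genes tested, 2015 were called lower in rectum and 1792 higher, and each list count here and below stands beside that share. Among 16 pan-neuronal genes tested, 10 were called lower in rectum and 1 higher, with a median of -0.96. Of these 16, 14 were above background on every array. Ina, among the 10, was above background on 4 colon arrays and 1 rectum array. Stmn3, a microtubule regulator of neurons, fell by 2.26 ± 0.25 (log2, SE, limma adjusted p = 0.00119). Rbfox3, the neuronal splicing factor NeuN, rose by 1.20 ± 0.20 (limma adjusted p = 0.00568). The list of synaptic vesicle genes had 7 of 13 lower and 1 higher, with a median of -0.53, from Cplx1, which clamps vesicle fusion, at -1.92 ± 0.30 to Syn2, a synapsin, at 1.96 ± 0.16. The list of identity factors was the least uniform, with 3 of 9 lower, 1 higher and a median of -0.11. Its ends were the homeobox gene Hoxb5, at -2.31 ± 0.19, and the homeobox gene Isl1, at 2.40 ± 0.20, which enteroendocrine cells also use.

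Transmitter enzymes and neuropeptides other than the members had 12 of 16 lower and 1 higher, with a median of -1.62. Of these 16, 10 were above background on every array. Calb1 was above background on 4 colon arrays and 1 rectum array, and Adcyap1 and Dbh on 4 colon and 2 rectum arrays. All are among the 12, so the count and the median rest in part on rectum signals near background. Calcb, which encodes a calcitonin gene-related peptide, fell by 3.84 ± 0.32 (log2, SE, limma adjusted p = 3.8e-04) and was well above background on 3 of 4 rectum arrays. Ddc, the decarboxylase of the serotonin and dopamine pathways, rose by 1.25 ± 0.14 (limma adjusted p = 0.00117). The cholinergic enzyme Chat was well above background on 2 rectum arrays and no colon array, and was not tested. Other cholinergic genes differed from it. Ache was at -0.95 ± 0.18 (limma adjusted p = 0.0105). Slc5a7, at -0.38 ± 0.19, did not pass, nor did Slc18a3, which was above background on 2 rectum and 4 colon arrays. The noradrenergic enzyme Th was above background on no array. Dbh, of the same pathway, was above background on 2 rectum and 4 colon arrays and was among the genes called lower in rectum.

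On the receiving side, 5 of 7 receptor genes tested were lower in rectum and 1 was higher. Vipr1, a receptor for vasoactive intestinal peptide that epithelium carries, rose by 0.52 ± 0.12 (log2, SE, limma adjusted p = 0.0244). The receptor for the related peptide PACAP, Adcyap1r1, fell by 1.74 ± 0.26 (limma adjusted p = 0.00409). The substance P receptor Tacr1 fell by 0.68 ± 0.19 (limma adjusted p = 0.0398), and Gucy1b1, a subunit of the nitric oxide receptor, fell by 1.25 ± 0.23 (limma adjusted p = 0.00868). Vipr2, the other receptor for vasoactive intestinal peptide, was well above background on no rectum array and 2 colon arrays. It was not tested, and no difference is given.

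Ret could not be tested, but 8 of 10 listed ligand and co-receptor genes could. Of these, 3 were lower and 1 was higher in rectum, with a median of -0.25. Gdnf, the ligand, fell by 0.95 ± 0.21 (log2, SE, limma adjusted p = 0.0170), and its co-receptor Gfra1 fell by 1.42 ± 0.30 (limma adjusted p = 0.0159); both were well above background on 3 of 4 rectum arrays. Edn3, endothelin 3, which acts on the same precursors through another receptor, fell by 2.67 ± 0.23 (limma adjusted p = 4.3e-04), and was above background on 1 rectum array. The persephin co-receptor Gfra4 rose by 0.59 ± 0.16 (limma adjusted p = 0.0375).

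Beside S100b, 12 glial genes were tested. Of these 4 were lower and 1 was higher in rectum, with a median of -0.47. Ngfr, the low-affinity neurotrophin receptor, fell by 1.43 ± 0.26 (log2, SE, limma adjusted p = 0.00835). Sfrp5, at the other end of the list, was at 0.82 ± 0.29 and did not pass (limma adjusted p = 0.0799). Erbb3, a defining marker of glia that epithelium also expresses, was the gene that rose, by 0.61 ± 0.13 (limma adjusted p = 0.0154).

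**Figure D3:**
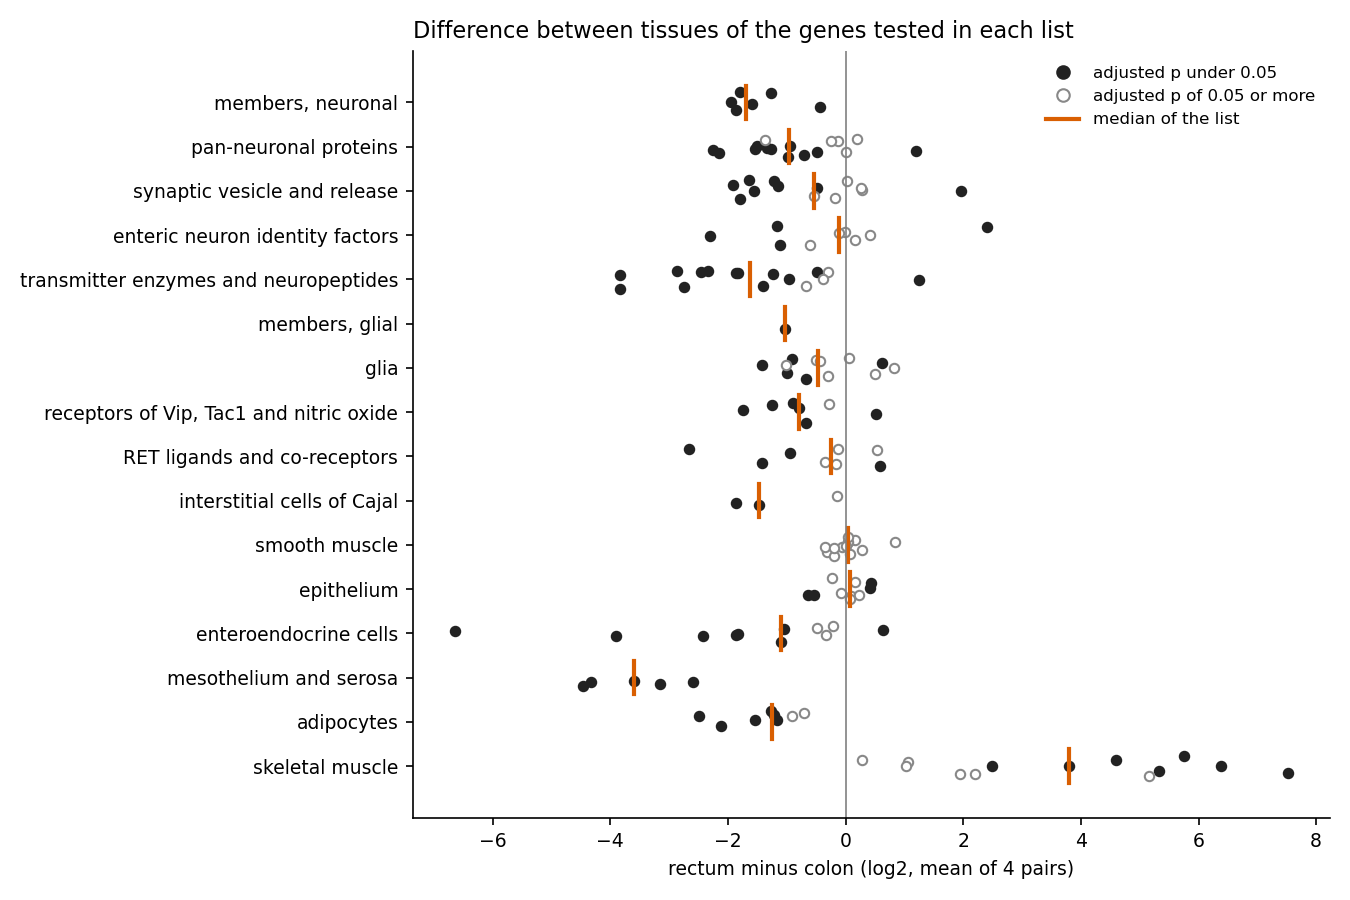
Difference between rectum and colon (x axis, log2, mean of 4 pairs) of each gene tested, by list (y axis); filled points passed the adjusted p of 0.05, open points did not, and orange bars are list medians. Neuronal, transmitter and mesothelial genes lie mostly left of 0, the 13 smooth muscle genes are open and lie around 0, and skeletal muscle genes lie to the right.

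Markers of other cell types in the wall moved in different ways between the tissues. Of the 13 smooth muscle genes none passed the test (limma). An unadjusted p under 0.05 was found for 1 of them and for 5372 of all 12722 genes tested. The smooth muscle genes had a median of 0.03, from -0.34 ± 0.11 for Cnn1 to 0.84 ± 0.41 for Hhip. Their mean centred level ran from -0.60 to 0.36 on the rectum arrays and from -0.32 to 0.40 on the colon arrays. That of the 5 neuronal members above background on all 8 arrays ran from -1.18 to -0.44 in rectum and from 0.60 to 0.83 in colon. With the smooth muscle mean subtracted on each array, the neuronal members differed between rectum and colon by -1.64 to -1.23 over the 4 pairs, and S100b by -1.12 to -0.93.

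Of the 3 genes of interstitial cells of Cajal, the pacemaker cells beside the myenteric plexus, 2 were lower in rectum. Kit fell by 1.87 ± 0.12 (log2, SE, limma adjusted p = 1.5e-04), and Gpc6 was at -0.15 ± 0.21. Mesothelial genes, which mark the outer surface of the gut, were lower in rectum in 5 of 5, from -4.46 ± 0.99 for Upk3b, which was above background on 2 of 4 rectum arrays, to -2.60 ± 0.25 for Upk1b. Lrrn4 was above background on all 4 colon arrays and on no rectum array. It passed the filter through its colon arrays alone, so its place in the 5 of 5 follows in part from the filter. No size is given since its rectum values lay near background. Of the 5 genes, 2 were above background on all 8 arrays. The part of the mesothelial layer in the neuronal difference was not tested.

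Enteroendocrine genes had 7 of 11 lower and 1 higher in rectum, from Nts, at -6.65 ± 0.19, to Pyy, at 0.64 ± 0.13. These bear on Tac1 and on several listed peptides, which these cells share with neurons, and their part was not tested. Adipocyte genes had 6 of 8 lower, from -2.49 ± 0.26 for Cidec to -0.71 ± 0.46 for Car3, which did not pass, and their part in the difference of S100b between tissues was not tested. Skeletal muscle genes had 7 of 13 higher, up to 7.52 ± 1.76 for Myh4, which was above background on 1 of 4 colon arrays, and their mean centred level ran from -0.51 to 3.32 in rectum and from -1.69 to -0.996 in colon. Epithelial genes had 2 of 10 lower and 2 higher, from Krt20 at -0.64 ± 0.10 to Slc26a3 at 0.42 ± 0.11. Of all probes tested, 14.0% were called lower in rectum and 13.1% higher.

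**Figure D4:**
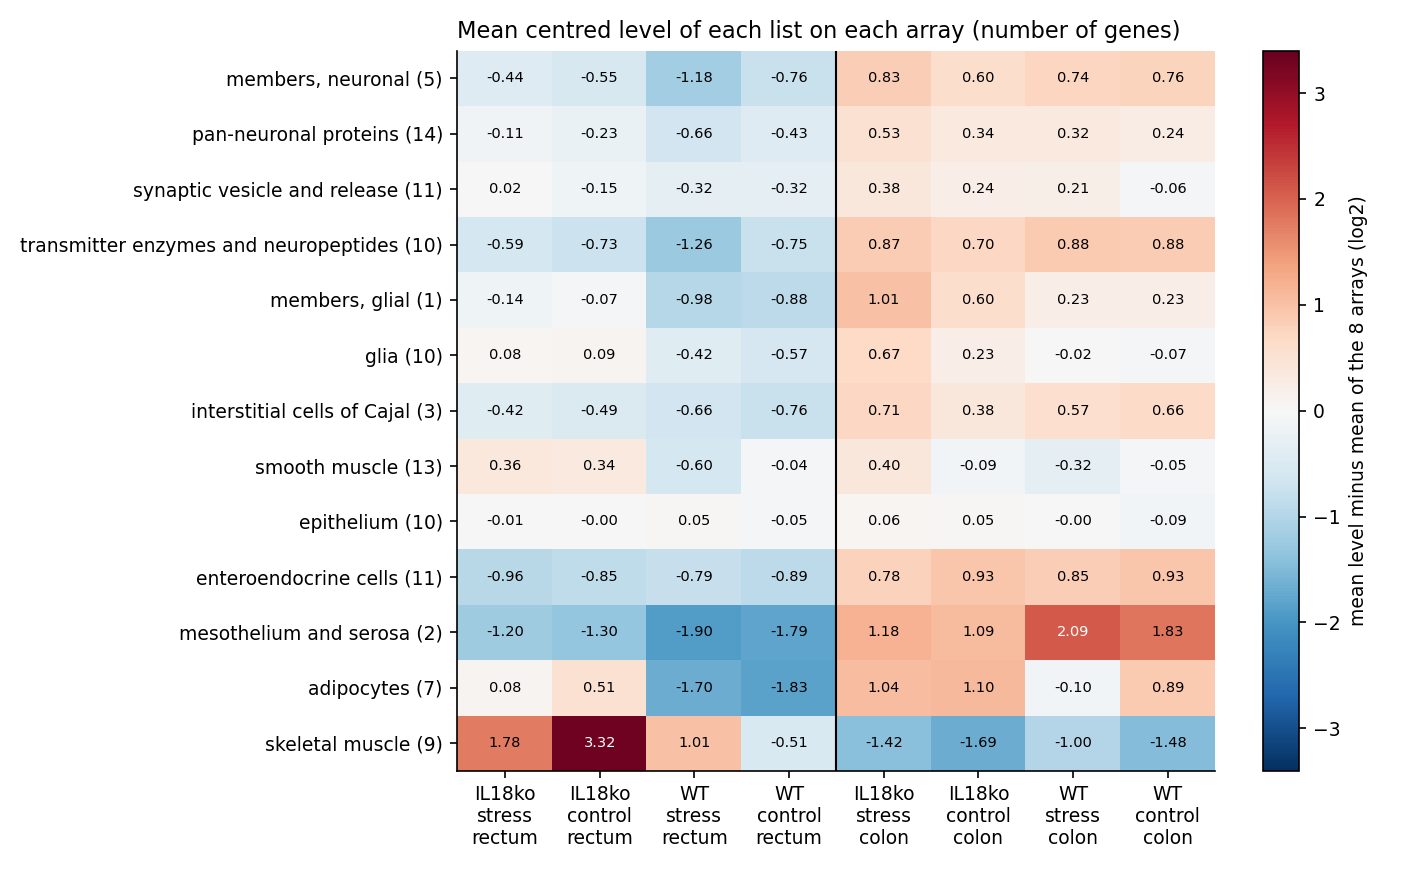
Mean level of each list on each array (x axis), with every gene centred on its own mean over the 8 arrays (log2, colour and printed value); the number of genes above background on all 8 arrays is in brackets. The neuronal members run from -1.18 to -0.44 on the rectum arrays and from 0.60 to 0.83 on the colon arrays, whereas smooth muscle runs from -0.60 to 0.36 and from -0.32 to 0.40.

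The genes whose levels ran most like the mean of those 5 neuronal members, Elavl4, Uchl1, Prph, Vip and Tac1, were sought outside the lists, among 11674 genes above background on all 8 arrays. They were Nap1l5, Necab2 and Cadps (each Pearson r = 0.998 over 8 arrays), Rit2 and Sult4a1 (each r = 0.997) and 6330403K07Rik (r = 0.996). Their differences between rectum and colon ran from -2.48 for Nap1l5 to -1.15 for Cadps. For S100b they were Kcnj10 (r = 0.998), Gpr37l1 (r = 0.997) and Mvb12b, Six5, Pcdha6 and Lrrn2 (each r = 0.994), with differences from -1.30 for Gpr37l1 to -0.63 for Pcdha6. The arrays fall into the 2 tissues, 1 slide each, and a gene that differs between them scores high on that alone, so r is given as a description.

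The second question was whether the loss of interleukin 18 went with a change in these genes. None of the 7 genes tested was called between IL18ko and WT mice at an adjusted p under 0.05 (limma on the 8 arrays, with tissue and housing as terms), where 0.122% of probes tested were called. An unadjusted p under 0.05 was found for 3 of the 7 and for 5360 of the 26273 probes (20.4%). S100b came nearest, at 0.70 ± 0.12 higher in IL18ko (log2, SE, n = 8 arrays, limma adjusted p = 0.0807), or 1.62-fold. It was higher in 4 of 4 pairs, by 0.84 in stressed and 0.81 in control rectum and by 0.78 in stressed and 0.37 in control colon. An equal direction in 4 of 4 pairs was seen upward in 12.9% and downward in 13.6% of all probes tested.

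Without the WT stress rectum array, the difference of S100b was 0.63 and passed (limma adjusted p = 0.0199). It also passed when the 2 tissues of a mouse group were averaged (limma adjusted p = 0.00333) or treated as a random block (limma adjusted p = 0.00648). These settings called 3568 (13.6%), 3053 (11.6%) and 5316 (20.2%) of all probes tested. The fit to averaged tissues leaves 1 residual degree of freedom, and the random block had an estimated correlation of -0.47. Over all alternatives the limma adjusted p ran from 0.00333 to 0.385. Whether the difference depended on tissue did not pass either, at 0.25 ± 0.27 larger in rectum (limma adjusted p = 0.839).

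Vip was at 0.61 ± 0.22 (log2, SE, limma adjusted p = 0.190), higher in IL18ko in 3 of 4 pairs. It was 0.37 without the WT stress rectum array (limma adjusted p = 0.126), and passed with the tissues averaged (limma adjusted p = 0.0186) and as a random block (limma adjusted p = 0.0468). Tac1 was at -0.29 ± 0.10 (limma adjusted p = 0.176), lower in IL18ko in 4 of 4 pairs, and passed with the random block (limma adjusted p = 0.0237). Nos1 was at 0.54 ± 0.26, higher in 4 of 4 pairs, from signals near background in rectum (limma adjusted p = 0.296). Elavl4 (0.17 ± 0.11), Uchl1 (0.24 ± 0.12) and Prph (0.36 ± 0.40) were higher in IL18ko in 3, 3 and 2 of 4 pairs.

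**Figure D5:**
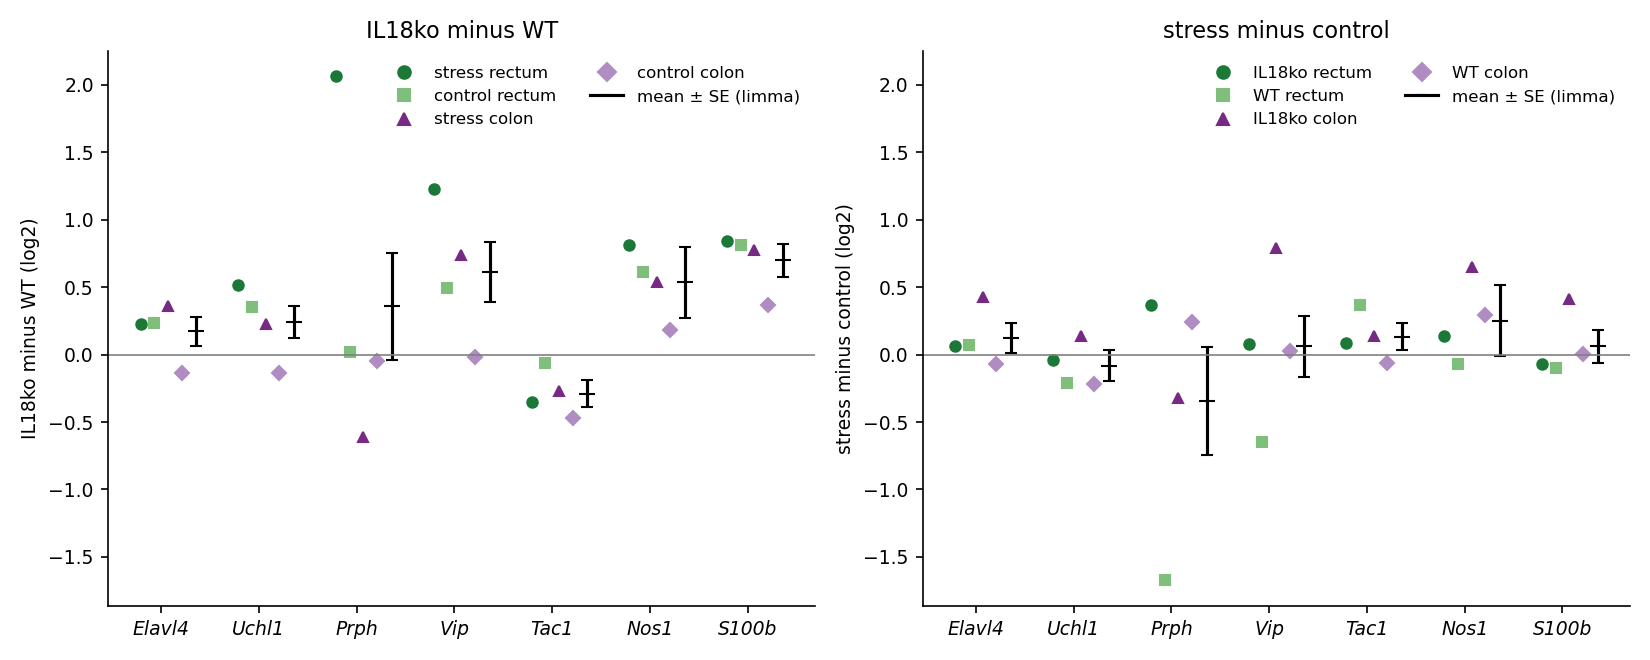
Difference of each gene tested between IL18ko and WT (left) and between stress and control (right) in the 4 matched pairs (y axes, log2), with the mean and the SE from limma (black). S100b and Nos1 lie above 0 in 4 of 4 pairs and Tac1 below 0 in 4 of 4 in the left panel, and the far points of Prph, 2.06 at left and -1.67 at right, both use the WT stress rectum array.

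Of the 144 other listed genes tested, none was called between the genotypes (limma). An unadjusted p under 0.05 was found for 45 of them (31.3%) and for 2780 of the 12722 genes tested (21.9%). The median difference, IL18ko minus WT, was 0.53 over 12 glial genes, of which 6 were higher in 4 of 4 pairs, and 0.30 over the 6 neuronal members tested. It was 0.34 over 16 pan-neuronal genes, of which 9 were higher in 4 of 4 pairs. It was also 0.53 over the 13 smooth muscle genes, 6 of them higher in 4 of 4 pairs, and 1.43 over 8 adipocyte genes, 5 of them in 4 of 4 pairs. For 13 skeletal muscle genes it was 1.10, with 2 higher in 4 of 4 pairs. Over all 12722 genes tested it was -0.0030, and 1577 of them were higher in IL18ko in 4 of 4 pairs. The adipocyte genes had a mean centred level of 0.08 and 0.51 on the IL18ko stress and control rectum arrays, against -1.70 and -1.83 on the WT stress and control rectum arrays. In colon it was 1.04 and 1.10 on the IL18ko arrays, against -0.10 and 0.89 on the WT arrays. The part of adipocytes and of muscle in the S100b difference was not tested. With the smooth muscle mean subtracted, S100b stood in rectum at -0.50 in IL18ko stress against -0.38 in WT stress, and at -0.41 in IL18ko control against -0.84 in WT control. In colon it stood at 0.61 in IL18ko stress against 0.55 in WT stress, and at 0.69 in IL18ko control against 0.28 in WT control, so it was higher in IL18ko in 3 of 4 pairs.

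The third question was whether isolation went with a change in these genes. None of the 7 genes was called between stress and control (limma; 0 of the 7 at an unadjusted p under 0.05), and 0% of all probes tested were called, with 906 at an unadjusted p under 0.05. The differences ran from -0.35 ± 0.40 for Prph to 0.25 ± 0.26 for Nos1 (log2, SE, n = 8 arrays), and the limma adjusted p from 0.896 to 0.959. No gene of the 7 kept 1 direction through 4 of 4 pairs, where 8.53% of probes tested were higher and 5.72% lower in all 4.

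Some single pairs were wide. Vip in IL18ko colon was 0.79 higher under stress than in control, and in WT rectum it was at -0.65. Prph in WT rectum was at -1.67, and without the WT stress rectum array its mean difference was 0.16 in place of -0.35. For S100b the IL18ko colon pair was at 0.41 and the other 3 pairs were between -0.10 and 0.002. For none of the 7 genes did the effect of genotype or of stress depend on tissue past the threshold (limma with tissue terms; 0 of the 7 at an unadjusted p under 0.05 in either test, and 0% of probes tested called in each). The lowest adjusted p was 0.831 for genotype and 1.0 for stress.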

How the data were processed

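RNA of 8 groups was hybridised to 8 single-colour Agilent mouse arrays, from 400 ng of total RNA per the labels' protocols. Per the file headers, the authors' scanner files hold background-corrected intensity per spot on a linear scale from Feature Extraction 9.5.1.1. Per the labels, the authors' deposited values divide each array by that of WT control colon, as a linear ratio; their log2 tracked the scanner ratios at r of 0.995 to 1.00 over 18330 features. Further scaling by the authors is not given in the sources used here.

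Outlier spots were removed and spots averaged per probe, leaving 40963 of 41174 probes, of which 22857 were named through accessions (GRCm38.p6) and 18106 were not. Levels are log2 intensities minus the 75th percentile of the array, tested for 26273 probes that passed the background filter on 4 or more of the 8 arrays; of several probes of a gene, the brightest on average was used. Limma compared tissues on 4 rectum minus colon differences, and genotype and housing on the 8 arrays with tissue as a term, with a variance trend and Benjamini-Hochberg adjustment over all probes tested. SE values come from limma. The steps were tested on simulated data.

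The genes named were the 8 members, the ends of each list, ligands and receptors of members, and 6 genes most like each pattern by Pearson correlation. The defining markers Gfap and Erbb3, and Chat, Ache, Slc5a7, Slc18a3, Th, Dbh, Lrrn4 and Vipr2, were named after their values were seen. The members and lists were chosen with earlier results of these data known. Alternatives were quantile and median scaling, normexp (offset 50, on median signals), other filters, no trend, the deposited ratios, other designs and leaving out arrays. Software was limma 3.58.1 in R 4.3.3, and pandas 2.3.3, numpy 2.4.6 and matplotlib 3.10.9 in Python 3.11.15.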

Additional observations from a re-analysis of the deposited data

Results flagged for a closer look

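Vip on the 4 colon arrays had 1 array far from the other 3: IL18ko stress stood at 0.78, and the other 3 between -0.01 and 0.04, a gap that was 0.937 of the whole range. By chance about 5% of sets would pass the limit used for this flag, and 21 sets of 4 values were examined.

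Prph differed between IL18ko and WT in opposite directions in the 2 tissues, by 2.06 and 0.02 in the stressed and control pairs of rectum and by -0.61 and -0.05 in those of colon. The size lay in the stressed pairs, and 2.06 uses the WT stress rectum array. Without that array the genotype difference of Prph over both tissues was -0.15. The difference between tissues was 1.37 ± 0.63 (log2, SE) and did not pass (limma adjusted p = 0.831).

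S100b under stress differed from control by -0.07 in IL18ko and -0.10 in WT rectum, and by 0.41 in IL18ko and 0.002 in WT colon. The difference between tissues was -0.29 ± 0.27 and did not pass (limma adjusted p = 1.0).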

How the results depend on the processing

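Each of the 7 genes was lower in rectum under each alternative that gave it a value, Nos1 by only -0.13 with normexp (limma adjusted p = 0.301) and with no value from the filter on all 8 arrays or the deposited ratios. Elavl4, Uchl1, Vip and S100b kept their calls under those run on them. The paired test called 7106 probes between tissues and all 7 genes, and the test without the mouse group as a replicate block called 8329 probes and all 7 genes. Leaving out 1 pair gave 3481 (without the WT control pair) to 10578 calls (without the WT stress pair), with 3733 without the IL18ko control pair. For genotype, 32 probes were called, 13 higher and 19 lower in IL18ko. Quantile normalization gave 77 (22 higher, 55 lower), median centring 60 (15 and 45), no variance trend 18, and the deposited ratios 189 (35 and 154). The averaged tissues gave 3053 and the random block, at an estimated correlation of -0.47, 5316. Leaving out 1 array gave 6 to 3568 calls, the highest without the WT stress rectum array, with 24 without IL18ko stress rectum and at most 14 without any other array. Of the 7 genes, 0 or 1 was called on leaving out 1 array, the 1 being S100b without WT stress rectum; 2 were called with averaged tissues and 3 with the random block. Averaged tissues gave 23 stress calls, and fits to the rectum minus colon differences gave 113 and 50 calls for the dependence of genotype and stress on tissue. The sign of some uncalled differences turned. On leaving out 1 array, the genotype difference of Prph ran from -0.15 (without WT stress rectum) to 0.68. The stress difference of Uchl1 ran from -0.19 to 0.00046 (without WT control colon), that of Prph from -0.70 to 0.16 (without WT stress rectum) and that of S100b from -0.057 (without IL18ko control colon) to 0.13. That of Vip ran from -0.18 (without IL18ko control colon) to 0.30, with -0.058 and -0.0065 without the IL18ko stress array of colon or rectum. That of Elavl4 was -0.0055 with the other probe. The causes were not tested. A slide block for genotype was not run, since slide and tissue are the same. Signal over background limits Nos1 and Ret.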
